A study of Capra hircus with 8 samples.

Results

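DEAD-box and DEAH-box helicase genes were examined in 8-cell goat (Capra hircus) embryos. They were taken from the deposited messenger RNA table as every entry whose name starts with DDX or DHX followed by a digit. The rule found 52 genes, 36 DDX and 16 DHX, among 22107 entries. The series holds 8 libraries, 2 for each of 4 groups, and the messenger RNA table covers the 8-cell groups: 2 libraries of embryos from in vitro fertilisation (IVF) and 2 of cloned embryos, obtained by somatic cell nuclear transfer (SCNT). For SCNT an egg is freed of its own nucleus and receives that of a somatic cell. The 4-cell libraries were not analysed here. Whole embryos were lysed and polyadenylated RNA was amplified by Smart-seq2, a full-length cDNA protocol for very small samples. The labels give no genotype, breed, donor cell type or number of embryos per library, and do not say whether the 2 libraries of a group came from separate pools, so p-values measure only the spread between these libraries, which may be technical.

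These helicases use ATP to pull apart short RNA duplexes or to strip proteins from RNA, and the family is named for a short run of amino acids in its ATPase core. DEAD-box members mostly act locally on short duplexes, while DEAH-box members travel along a strand and drive steps such as the remodelling of the spliceosome. In eggs and early embryos they serve the storage, translation and clearance of maternal messenger RNA, and then splicing and ribosome assembly once the embryo transcribes its own genome.

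Library depth was recovered from the steps between low FPKM values, fragments per kilobase of gene per 1000000 sequenced. In units of 1000000 reads, the recovered totals were 27.5 and 30.4 in IVF replicates 1 and 2 and 28.4 and 28.5 in SCNT replicates 1 and 2. At these totals 1 read on a feature of 1 kilobase is worth between 0.0330 and 0.0364 FPKM. Whole reads could be recovered for 51 of the 52 helicase genes, all but DDX5, and are given below as the smallest whole numbers that fit the 4 values. Over 10303 tested genes, SCNT replicate 2 stood apart: it correlated with the IVF libraries at 0.78 and 0.82 on log2(FPKM + 1). The values were 0.89 and 0.91 for SCNT replicate 1 and 0.96 between the IVF libraries. The SCNT libraries correlated with each other at 0.90, so SCNT replicate 1 was about as close to the IVF libraries as to SCNT replicate 2. Of the 12 oocyte and cleavage embryo markers in the table, the highest by mean, ZP2, lay between 905 and 1279 FPKM, the lowest, ZAR1, between 1.29 and 1.73 FPKM, and NLRP5 between 0.200 and 4.30 FPKM.

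Transcripts of these helicases were more abundant in the SCNT libraries for most of the family, although few genes passed a test over the whole table. DDX56, which serves the assembly of the large ribosomal subunit, and DHX58, which encodes the RNA sensor LGP2, passed as higher in SCNT embryos. Both calls were lost in several of the alternative settings. No helicase gene passed as lower in that test, although 4 of the 52 lay below both IVF libraries in both SCNT libraries. Of the 46 tested helicase genes, 32 lay above both IVF libraries in both SCNT libraries and 3 below. Over all tested genes, 46.9% lay above and 17.1% below. The most abundant member in every library was DDX5, a helicase of splicing and transcription, followed by DDX3X, which acts in translation initiation.

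Summed over the 52 genes, the FPKM was 1194 and 928 in IVF against 1466 and 1776 in SCNT. This was 0.287% and 0.238% of all FPKM in IVF and 0.385% and 0.416% in SCNT, so the groups did not overlap on either scale. The median level over the 52 genes was 4.22 and 4.42 FPKM in IVF against 9.90 and 14.3 FPKM in SCNT. In IVF 25 genes of the family reached 5 FPKM in each library, while 37 did in SCNT replicate 1 and 43 in SCNT replicate 2. The number reaching 5 FPKM was not counted over all genes. At 1 FPKM, the SCNT libraries also held more genes over the whole table, 9883 and 11025, against 8984 and 9038 in IVF. At that level the family had 46 genes in each SCNT library, against 39 and 41 in IVF. DDX5 alone made up 48.9% and 38.4% of the family's FPKM in IVF and 36.9% and 39.7% in SCNT.

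**Figure D1:**
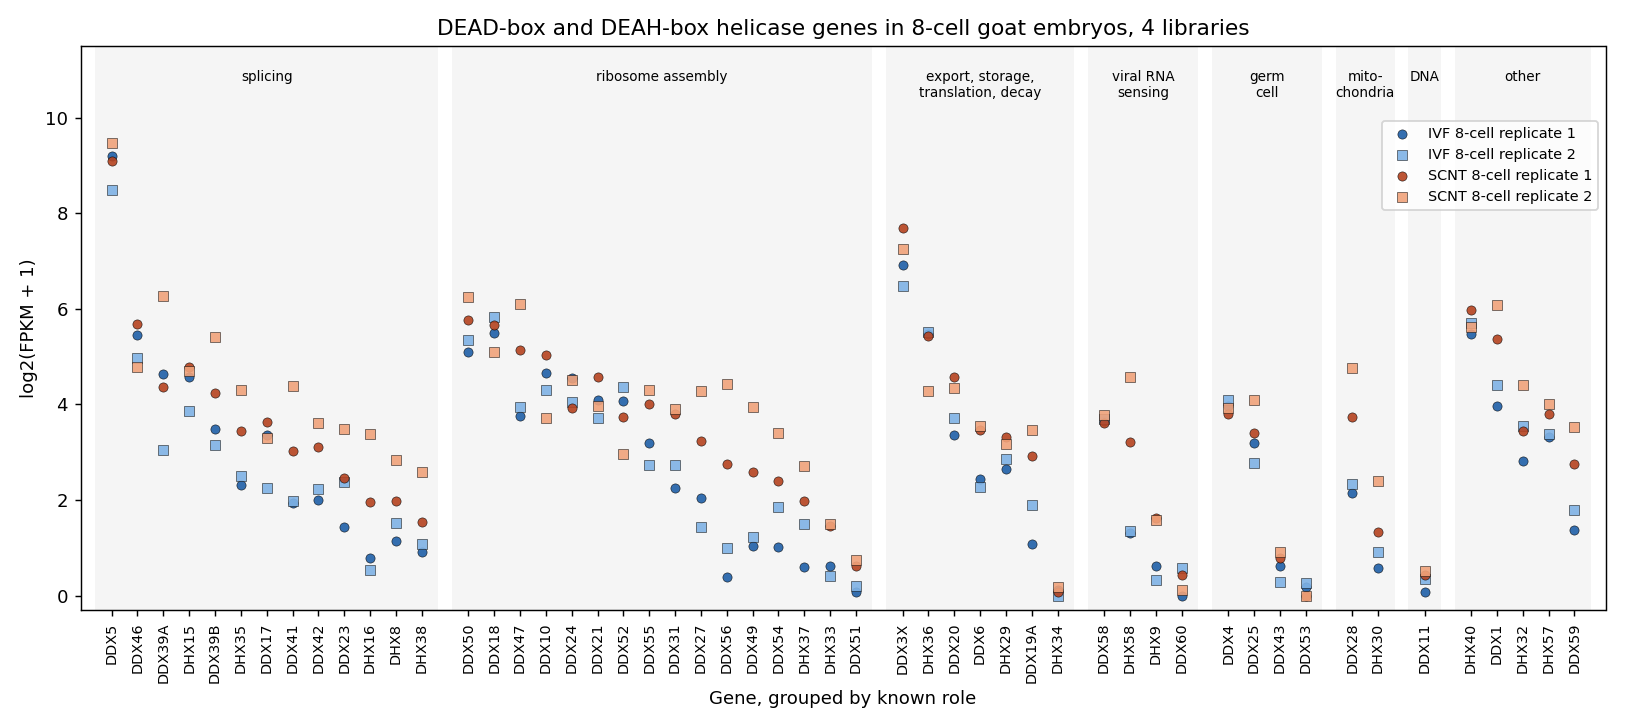
Levels of the 52 genes as log2(FPKM + 1), 1 point per library, with genes on the horizontal axis grouped by known role and ordered by mean level within a role. DDX5 and DDX3X stand highest, and for 35 of the 52 genes both SCNT points lie above both IVF points. Of the 46 tested genes this held for 32, against 46.9% of all tested genes.

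The comparison of SCNT with IVF embryos asked which helicase transcripts differ after nuclear transfer. It used limma on log2(FPKM + 1), with p-values adjusted over the 10303 genes that reached 1 FPKM in 2 or more libraries. Of the 52 genes, 46 entered the test; DDX11, DDX43, DDX51, DDX53, DDX60 and DHX34 were too low. At an adjusted p of 0.05, 2 of the 46 were higher, none was lower and 44 did not pass, against 3.86% of all tested genes called, 3.02% higher and 0.844% lower. Over all tested genes these were 311 higher and 87 lower; median centring turned the split to 158 and 238, and quantile normalization to 121 and 150. At an unadjusted p under 0.05, 24 of the 46 were higher and none lower. Over all tested genes 31.1% passed that level, 25.4% as higher. Among the 24 were DDX56, DHX9, DHX16, DHX33 and DHX30, which entered the test only through their SCNT levels. The standard errors of the 46 log2 differences ran from 0.33 (DHX33) to 0.72 (DDX39A).

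Over all 52 genes, both SCNT libraries exceeded both IVF libraries in 35 and fell short of both in 4, and the groups overlapped in 13. Of the 46 tested, 32 lay above and 3 below, against 46.9% and 17.1% of all tested genes. DDX56, DHX9, DHX16, DHX33 and DHX30 met the minimum level only through the SCNT libraries; without these 5, the SCNT libraries were the higher pair in 27 of 41. A minimum of 1 FPKM on the mean of the 4 libraries kept the same 46 genes of the family, and over all genes kept by it the SCNT libraries were the higher pair in 46.9%. The rank of a gene among the 22107 entries does not depend on how a library is scaled. By rank, 29 of the 46 stood higher in both SCNT libraries than in both IVF libraries and 4 lower, against 31.8% and 28.7% of all tested genes. The 5 genes that met the minimum level only through the SCNT libraries were among these 29.

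The median log2 difference, SCNT minus IVF, was 1.07 over the 46 genes and 0.39 over all tested genes. The 46 include the 5 genes that met the minimum level only through the SCNT libraries. Both medians depend on scaling: after median centring they were 0.58 and −0.10, and after quantile normalization 0.59 and −0.01. Under the deposited scaling 40 of the 46 differences were positive, and so were 6781 of all 10303 tested genes. Under median centring 34 of the 46 were positive and under quantile normalization 36. The positive differences over all tested genes were not counted for those scalings. Beside these values stand marker genes of the cell types the embryos could hold. The oocyte and cleavage embryo list (12 of 15 genes in the table, all 12 tested) summed to 2733 and 2963 FPKM in IVF against 3928 and 5986 FPKM in SCNT, with 10 of 12 genes higher in both SCNT libraries; ZAR1L and KHDC3L rose. The fibroblast list (15 genes, 10 tested) summed to 135 and 125 FPKM in IVF against 102 and 108 FPKM in SCNT. DCN (94.3 and 85.5 FPKM, then 33.9 and 39.5 FPKM) set that direction: the other 14 genes summed to 41.2 and 39.6 FPKM in IVF and 68.2 and 68.8 in SCNT. Of the 10 tested, 5 were higher in both SCNT libraries, 2 lower in both and 3 overlapped, with a median log2 difference of 0.86; TIMP1 and TAGLN rose. LUM (12.97 to 16.5 FPKM) and FN1 (9.44 to 13.5 FPKM) were present in every library, THY1 was at or under 0.0617 FPKM and COL6A1 was listed at 0 in 3 libraries. The cumulus and granulosa list (10 of 12 genes in the table, 4 tested) summed to 84.3 and 89.9 FPKM in IVF against 61.0 and 94.6 FPKM in SCNT, and none of the 4 passed: 2 were lower in both SCNT libraries and 2 overlapped (median log2 difference −0.22). STAR (38.8 to 58.0 FPKM), HAS2 (17.9 to 29.4 FPKM) and TNFAIP6 (1.77 to 19.8 FPKM) carried that sum. FSHR, AMH and INHA were listed at 0 in all 4 libraries, and LHCGR and INHBA at 0 in IVF alone, with 0.385 and 1.30 FPKM of LHCGR and 0.205 and 0.379 FPKM of INHBA in SCNT. The part of these in the helicase values was not tested. In libraries of whole embryos, fewer cells of a type and less RNA per cell cannot be told apart.

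**Figure D2:**
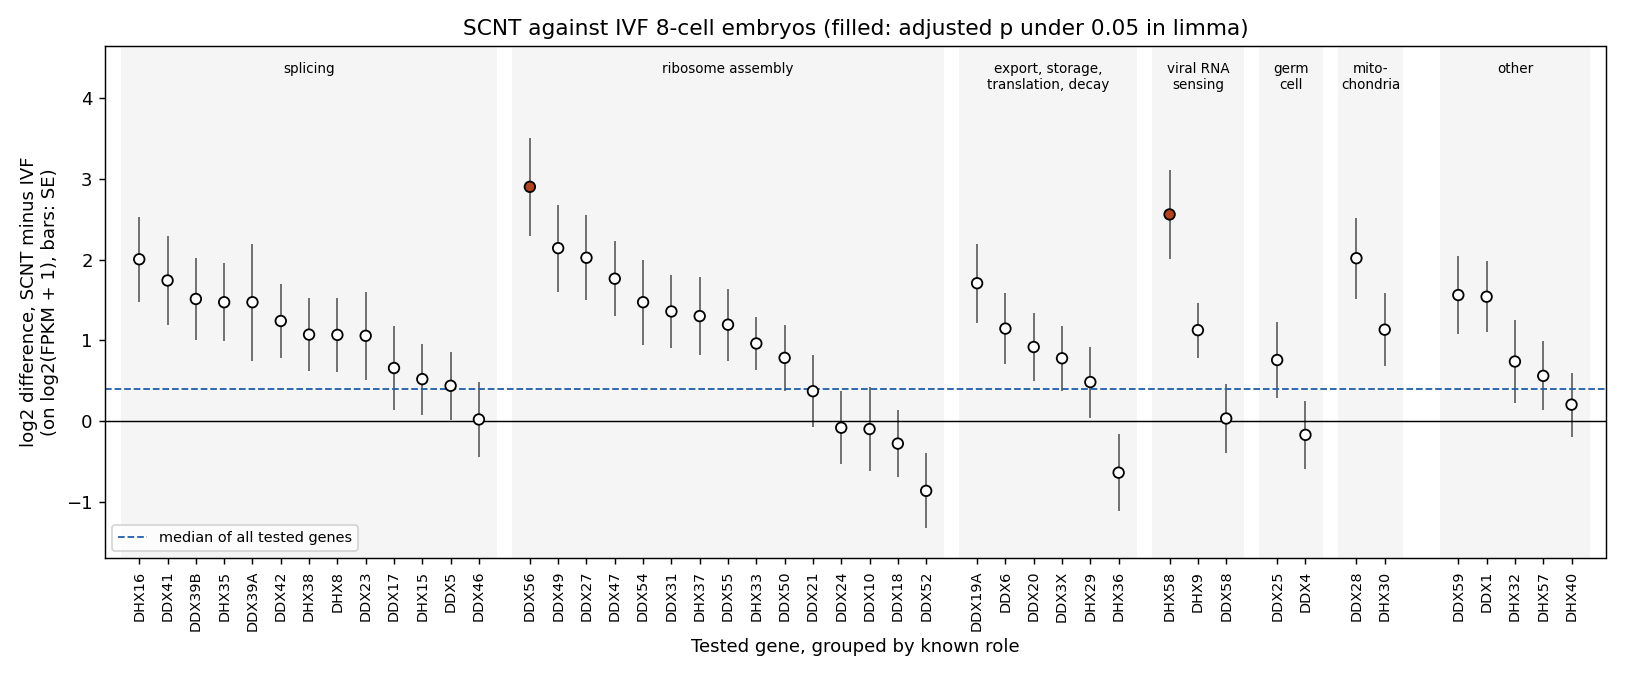
Log2 difference, SCNT minus IVF, with its standard error for the 46 tested genes, grouped by known role; filled points passed at an adjusted p of 0.05 in limma and the dashed line is the median of all tested genes (0.39). DDX56 and DHX58 are the filled points, and 36 of the 46 points lie above the dashed line.

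The ribosome assembly helicases work in the nucleolus, where they release small nucleolar RNAs and fold ribosomal RNA. Of 16 such genes 15 were tested; DDX56 rose and 14 missed the threshold. Their median log2 difference was 1.19, with a range from −0.87 to 2.90. Over all tested genes the median was 0.39. DDX56 had 0.314 and 0.983 FPKM in IVF, from 20 and 69 reads, and 5.74 and 20.6 FPKM in SCNT, from 377 and 1361 reads. Its SCNT values did not overlap with those of IVF and themselves differed widely. DDX56 met the minimum level only through the SCNT libraries. The log2 difference was 2.90 ± 0.60 (SE), with an adjusted p of 0.0445 in limma. The call was lost without IVF replicate 1 (adjusted p = 0.114), without SCNT replicate 2 (0.0930), with no minimum level (0.242), with a minimum of 5 FPKM (0.0581) and after quantile normalization (0.0542).

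DDX49, a helicase of the small subunit pathway, had 1.05 and 1.34 FPKM in IVF against 5.04 and 14.5 FPKM in SCNT. The log2 difference of 2.14 ± 0.54 (SE) missed the threshold (adjusted p = 0.0585). DDX27, which acts on the large subunit, had 3.12 and 1.72 FPKM in IVF against 8.48 and 18.6 FPKM in SCNT (log2 difference 2.02, adjusted p = 0.0623). DDX47, of the small subunit pathway, stood higher in level, at 12.6 and 14.4 FPKM in IVF against 34.4 and 67.3 FPKM in SCNT (1.76, 0.0624). In each of these 3 genes both SCNT libraries lay above both IVF libraries and SCNT replicate 2 was the highest. DDX31 differed from them in that its SCNT libraries were close, at 12.98 and 14.03 FPKM against 3.79 and 5.69 FPKM in IVF (1.36, 0.0923). DDX50, a nucleolar paralogue of DDX21, was the most abundant of the role list, at 33.3 and 39.8 FPKM in IVF against 53.5 and 74.8 FPKM in SCNT (0.78, 0.223). DDX54, DDX55, DHX37 and DHX33 were also higher in both SCNT libraries than in both IVF libraries. Their log2 differences ran from 0.96 (DHX33) to 1.47 (DDX54), and none passed. DHX33 met the minimum level only through the SCNT libraries. Of the 15 tested genes of this role list, 10 lay above IVF in both SCNT libraries, against 46.9% of all tested genes.

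Other genes of the same pathway did not share this pattern. DDX18, a helicase of ribosome subunit assembly, was among the most abundant, at 43.9 and 55.7 FPKM in IVF against 49.8 and 33.0 FPKM in SCNT, and its groups overlapped (log2 difference −0.28, 95% interval −1.24 to 0.67). DDX10, of the small subunit pathway, had 24.1 and 18.8 FPKM in IVF against 32.0 and 12.1 FPKM in SCNT, so that its highest and its lowest value were both SCNT libraries. DDX24 (22.4 and 15.6 FPKM in IVF, 14.2 and 21.8 FPKM in SCNT) and DDX21, a nucleolar helicase that also acts on RNA polymerase I and II transcription (16.0 and 12.1 FPKM, 22.8 and 14.6 FPKM), overlapped as well. DDX52, of the small subunit pathway, was the most negative of the tested helicase genes. It had 15.8 and 19.6 FPKM in IVF, from 1061 and 1450 reads, and 12.3 and 6.81 FPKM in SCNT, from 851 and 475 reads (log2 difference −0.87 ± 0.46 SE, adjusted p = 0.234). DDX51 was too low to be tested, at 11 and 30 reads in IVF (0.0602 and 0.149 FPKM) and 101 and 127 reads in SCNT (0.535 and 0.670 FPKM).

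Splicing helicases drive each rearrangement of the spliceosome, from the first pairing of small nuclear RNAs to the release of the spliced message. All 13 listed genes were tested and none passed; the median log2 difference was 1.07, with a range from 0.02 to 2.004, and 7 genes, all higher, were under an unadjusted p of 0.05, a level at which 25.4% of all tested genes were higher. DHX16, which readies the spliceosome for its first catalytic step, had 0.736 and 0.457 FPKM in IVF, from 70 and 48 reads, and 2.90 and 9.44 FPKM in SCNT, from 285 and 931 reads (2.004 ± 0.52 SE, adjusted p = 0.0624). DHX38, which acts before the second step, had 0.884 and 1.12 FPKM in IVF against 1.92 and 5.03 FPKM in SCNT (1.07, 0.154). DHX8, which releases the mature message, had 1.22 and 1.87 FPKM in IVF against 2.93 and 6.10 FPKM in SCNT (1.07, 0.159). In these 3 DEAH-box genes the groups did not overlap. Of the 3, DHX16 met the minimum level only through the SCNT libraries. Across the splicing list the SCNT libraries were the higher pair in 9 of 13 genes, against 46.9% of all tested genes. DHX15, which takes the spent spliceosome apart, lay much higher, at 22.7 and 13.5 FPKM in IVF against 26.4 and 24.8 FPKM in SCNT (0.52, 0.449).

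Among the DEAD-box genes of splicing, DDX41, a spliceosome component, had 2.86 and 2.97 FPKM in IVF against 7.15 and 20.01 FPKM in SCNT (log2 difference 1.74, adjusted p = 0.0828). DDX42 and DHX35, a DEAH-box gene found with spliceosomes, did not overlap between groups either, with log2 differences of 1.24 and 1.47. DDX23 and DDX46 act early, on the U1 and U2 particles of the spliceosome. DDX23 had 1.72 and 4.20 FPKM in IVF against 4.50 and 10.1 FPKM in SCNT (1.06, 0.223). DDX46 overlapped between groups, at 42.8 and 30.5 FPKM in IVF against 50.2 and 26.7 FPKM in SCNT (0.02, 95% interval −1.03 to 1.07). The SCNT libraries of DDX46 were on opposite sides of its IVF values.

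DDX39A and DDX39B are closely similar helicases that join the spliceosome and load the messenger RNA export complex. DDX39B had 10.2 and 7.92 FPKM in IVF against 17.9 and 41.8 FPKM in SCNT (log2 difference 1.51 ± 0.51 SE, adjusted p = 0.0947). DDX39A was the most uneven of the family, with 23.8 and 7.28 FPKM in IVF against 19.5 and 76.0 FPKM in SCNT (1.47 ± 0.72 SE, 0.204), and its groups overlapped. The ratio of DDX39A to DDX39B was 2.35 and 0.918 in IVF and 1.09 and 1.82 in SCNT, which overlap. The split between these copies is uncertain, because the treatment of reads that fit either copy is not given in the sources used here.

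DDX5 and DDX17 are paralogues that act in splicing, transcription and microRNA processing. DDX5 had 584 and 357 FPKM in IVF against 541 and 705 FPKM in SCNT, ranking 86th and 156th of all entries in IVF and 78th and 64th in SCNT. The groups overlapped in level (log2 difference 0.44, 95% interval −0.52 to 1.39), and the sign turned after median centring (−0.06). DDX17 had 9.23 and 3.78 FPKM in IVF against 11.4 and 8.82 FPKM in SCNT (0.66, adjusted p = 0.415). DDX5 thus stood 63.3 and 94.5 times as high as DDX17 per length in IVF and 47.7 and 79.9 times in SCNT, and these ratios overlap between the groups. DDX50 and DDX21, which lie next to each other in the RefSeq gene order and are the only pair of neighbours among the 52, stood at a ratio of 2.08 and 3.29 in IVF and 2.35 and 5.13 in SCNT.

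**Figure D3:**
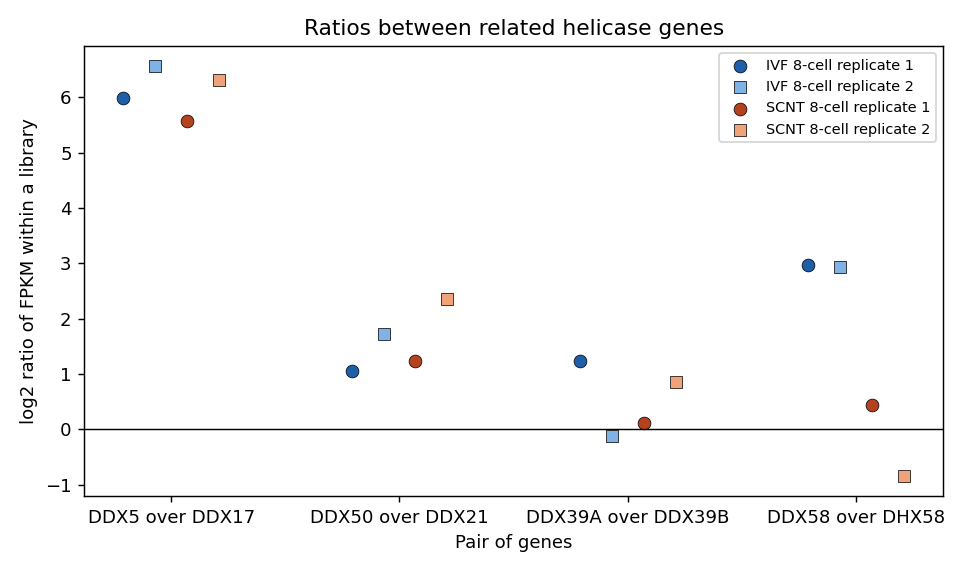
Log2 ratio of FPKM within each library for 4 pairs of related genes, with blue symbols for IVF and red for SCNT. The ratio of DDX58 to DHX58 is the only 1 of the 4 in which the groups do not overlap, at 7.81 and 7.62 in IVF and 1.36 and 0.559 in SCNT before the log was taken. This pair was chosen after its values were seen, so its separation is a description only.

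The helicases of export, storage, translation and decay of messenger RNA govern how stored maternal messages are used. DDX20, which serves the assembly of spliceosomal particles, was listed with them. Of the 7 genes 6 were tested and none passed, with 2 under an unadjusted p of 0.05, both higher, near the 25.4% of all tested genes. In 5 of the 6 the SCNT libraries were the higher pair, against 46.9% of all tested genes. DDX6, the helicase that keeps maternal messages silent and links them to decapping, had 4.46 and 3.82 FPKM in IVF, from 833 and 788 reads, and 9.99 and 10.7 FPKM in SCNT, from 1928 and 2075 reads. Its replicates were close in each group, and the log2 difference was 1.14 ± 0.44 (SE, adjusted p = 0.123). DDX19A, which strips proteins from messages at the nuclear pore, had 1.10 and 2.72 FPKM in IVF against 6.57 and 9.999 FPKM in SCNT (1.71, 0.0704). DDX3X had 120 and 87.5 FPKM in IVF against 206 and 151 FPKM in SCNT (0.78, 0.222). Its SCNT libraries lay above both IVF libraries, with replicate 1 the higher. DDX20, the helicase of the complex that assembles spliceosomal particles, had 9.24 and 12.2 FPKM in IVF against 22.7 and 19.3 FPKM in SCNT (0.92, 0.183). DHX29, which helps ribosomes scan structured leaders, had 5.31 and 6.30 FPKM in IVF against 9.02 and 7.97 FPKM in SCNT (0.48, 0.485).

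DHX36, which unwinds G-quadruplexes, was the exception in this group. It had 43.6 and 44.9 FPKM in IVF, from 7476 and 8494 reads, and 42.2 and 18.5 FPKM in SCNT, from 7465 and 3287 reads. SCNT replicate 1 was just below IVF, and replicate 2 was far below (log2 difference −0.64, 95% interval −1.74 to 0.45, adjusted p = 0.390). Without SCNT replicate 1 the log2 difference was −1.22 for DHX36 and −1.25 for DDX52. There the spread comes from the IVF pair alone, so no call is read from it.

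Sensors of viral RNA share the DEAD-box name in DDX58, which encodes RIG-I, and the DHX name in DHX58, its regulator. DHX58 had 1.49 and 1.56 FPKM in IVF, from 119 and 138 reads, and 8.26 and 22.9 FPKM in SCNT, from 683 and 1904 reads. The groups did not overlap and the IVF libraries were almost equal. The log2 difference was 2.56 ± 0.55 (SE), with an adjusted p of 0.0463 in limma. The call was lost without either IVF replicate (0.137 and 0.0993), without SCNT replicate 2 (0.0970), after median centring (0.0508) and quantile normalization (0.0704), with no minimum level (0.242) and with a minimum of 5 FPKM (0.0580).

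DDX58 had nearly the same level in every library, 11.6 and 11.9 FPKM in IVF against 11.3 and 12.8 FPKM in SCNT, from 1028 to 1178 reads (log2 difference 0.03, 95% interval −0.94 to 1.001); the sign turned after median centring (−0.46) and quantile normalization (−0.38). The ratio of DDX58 to DHX58, a pair set beside each other after their values were seen, was 7.81 and 7.62 in IVF and 1.36 and 0.559 in SCNT. IFIH1, which encodes MDA5, the other sensor of this family, was listed at 0 in 3 libraries and at 0.0185 FPKM in IVF replicate 2. DHX9, a nuclear helicase of many roles that also binds double-stranded RNA, was low, at 0.534 and 0.248 FPKM in IVF, from 80 and 41 reads, and 2.06 and 1.98 FPKM in SCNT, from 319 and 307 reads (1.13 ± 0.34 SE, 0.0770). DDX60 was listed at 0 in IVF replicate 1, where 3 reads would be 0.0283 FPKM, and at 0.497 FPKM in IVF replicate 2 and 0.348 and 0.0911 FPKM in SCNT.

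Germ cell helicases were led by DDX4, the VASA helicase of the germ line. DDX4 had 14.6 and 16.2 FPKM in IVF against 12.9 and 14.1 FPKM in SCNT, from 1213 to 1625 reads. Both SCNT libraries were just below both IVF libraries (log2 difference −0.17, 95% interval −1.13 to 0.78, adjusted p = 0.808). DDX25, known from the testis, had 8.20 and 5.89 FPKM in IVF against 9.60 and 16.0 FPKM in SCNT (0.76, 0.303). DDX43, a testis antigen gene, was under 1 FPKM in all 4 libraries, with 29 and 13 reads in IVF and 40 and 48 in SCNT. DDX53 was found by 7 and 12 reads in IVF (0.135 and 0.209 FPKM) and listed at 0 in both SCNT libraries; with a floor of 3 reads per library its mean FPKM was at least 3.08-fold lower in SCNT, on counts that cover counting error only.

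Both mitochondrial helicases lay higher in the SCNT libraries. DDX28, which serves the mitochondrial large ribosomal subunit, had 3.44 and 4.02 FPKM in IVF, from 176 and 227 reads, and 12.4 and 26.3 FPKM in SCNT, from 655 and 1394 reads (log2 difference 2.02 ± 0.50 SE, adjusted p = 0.0579). DHX30, which acts in mitochondrial ribosome assembly, had 0.487 and 0.870 FPKM in IVF against 1.52 and 4.30 FPKM in SCNT (1.13, 0.133). In neither gene did the groups overlap. Over all tested genes, 46.9% lay above IVF in both SCNT libraries. DHX30 met the minimum level only through the SCNT libraries.

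The remaining genes have broader or less studied roles. DDX1, part of the RNA ligase complex of transfer RNA splicing, had 14.6 and 20.1 FPKM in IVF against 40.4 and 66.4 FPKM in SCNT (log2 difference 1.54, adjusted p = 0.0701). DHX40 was abundant and overlapped between groups, at 43.6 and 51.3 FPKM in IVF against 62.2 and 47.9 FPKM in SCNT (0.20, 0.761). DDX59 (1.56) and DHX57 (0.56) lay higher in both SCNT libraries than in both IVF libraries, while DHX32 (0.74) overlapped; none of the 3 passed. DDX11, a DNA helicase of chromatid cohesion, was near the limit of detection in IVF replicate 1, with 5 reads, and had 30 reads in IVF replicate 2 and 36 and 45 in SCNT. DHX34, a factor of nonsense-mediated decay, had 15 and 0 reads in IVF and 8 and 22 in SCNT.

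Differences were smaller among the abundant members. Of the 12 genes with a mean of 20 FPKM or more over the 4 libraries, 5 lay above IVF in both SCNT libraries, 1 below and 6 overlapped, with a median log2 difference of 0.48; of all tested genes at this level 36.1% lay above and 25.8% below. Among the 26 genes from 5 to under 20 FPKM, 19 lay above, 2 below and 5 overlapped, with a median of 1.17, against 49% above and 14.9% below for all tested genes. Among all tested genes the median was 0.08 at 20 FPKM or more and 0.46 from 5 to under 20 FPKM, and there too the median was smallest at the highest levels. In the lowest band, under 5 FPKM, 8 of 14 genes of the family were tested and all 8 lay above IVF in both SCNT libraries, against 53.2% of all tested genes there, in a band where the filter acts.

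**Figure D4:**
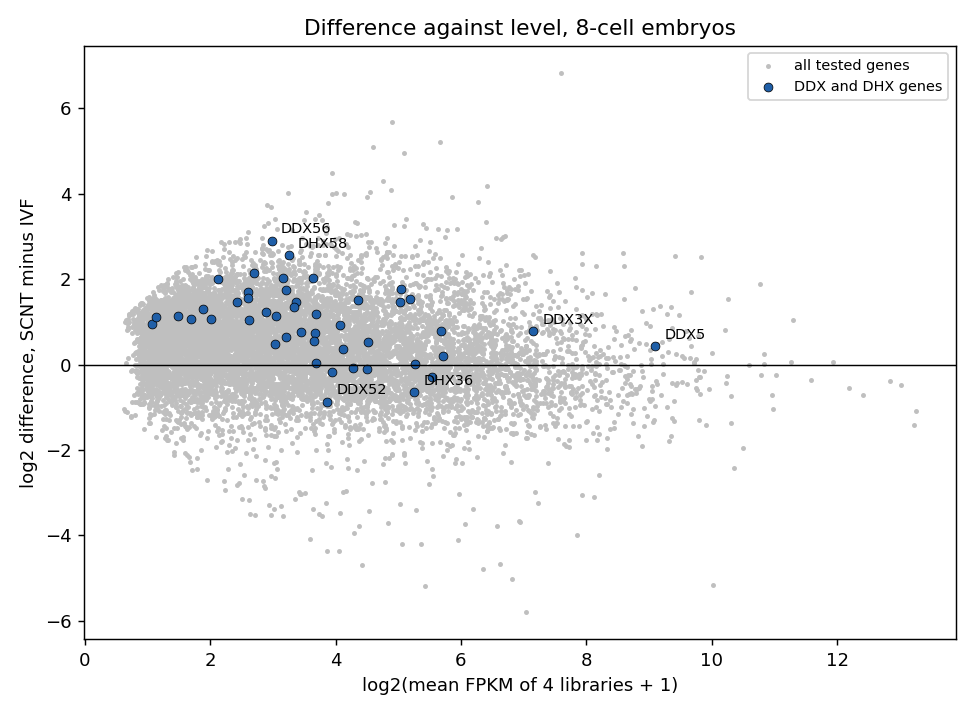
Log2 difference, SCNT minus IVF, against log2(mean FPKM of 4 libraries + 1), with all 10303 tested genes in grey and the 46 tested helicase genes in blue. DDX56 and DHX58 lie highest among the helicase genes, and DDX52 and DHX36 lie lowest.

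Most genes lay on the same side of the IVF mean in both SCNT libraries, but the size differed. Of the 46 tested genes, 41 were above the IVF mean in SCNT replicate 1, 40 in SCNT replicate 2 and 38 in both. The same was not counted over all tested genes, so these counts cannot be read as particular to the family. SCNT replicate 2 exceeded replicate 1 in 33 of 46, and in 6254 of 10303 over all tested genes. Its median gap over replicate 1 was 0.52 on the log2 scale, against 0.25 over all tested genes. The median gap of IVF replicate 2 over replicate 1 was 0.16 in the family and 0.06 over all tested genes. By role, the median gap between SCNT libraries was 0.85 in splicing genes and 0.47 in ribosome assembly genes, but −0.19 in genes of export, storage, translation and decay. In 16 of the 46 genes the SCNT libraries lay within a log2 gap of 0.5 of each other. In 11 of these 16, among them DDX3X, DDX6, DDX20, DDX31 and DHX9, both were above both IVF libraries. The share among all tested genes with so close a gap was not counted. Of these 11, DHX9 and DHX33 met the minimum level only through the SCNT libraries.

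**Figure D5:**
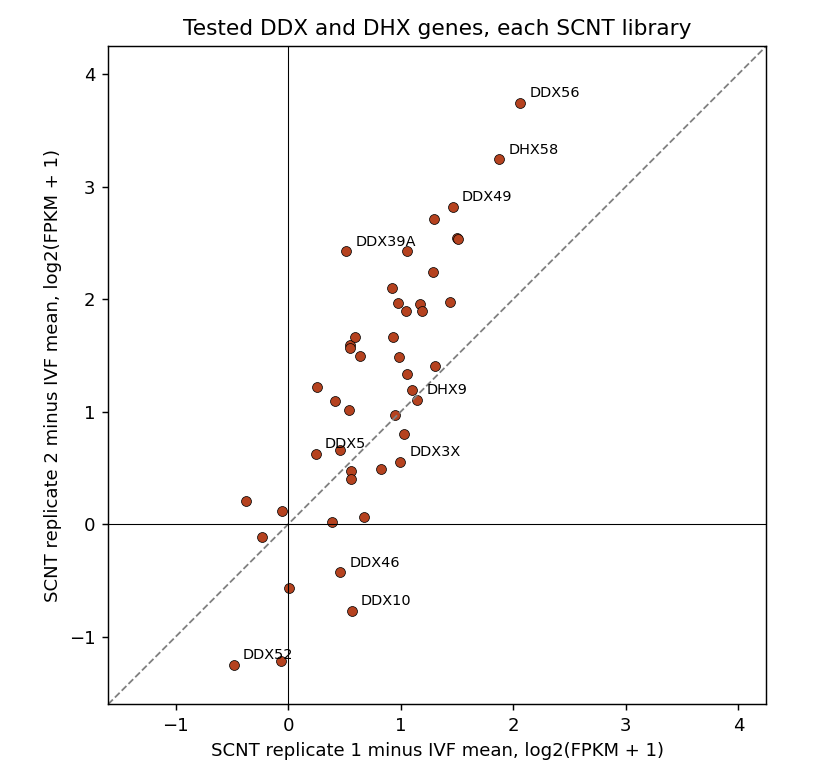
Difference of each SCNT library from the IVF mean on log2(FPKM + 1) for the 46 tested genes, SCNT replicate 1 on the horizontal and replicate 2 on the vertical axis, with the dashed line marking equal differences. In 33 of the 46 genes the point lies above the dashed line. Over all tested genes SCNT replicate 2 exceeded replicate 1 in 6254 of 10303. DDX10 and DDX46 are among the helicase genes on opposite sides of 0 in the 2 libraries.

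Helicases with other names and known partners were read from lists of the same pathways, beside the shares of all tested genes: 25.4% higher at an unadjusted p under 0.05, 46.9% above IVF in both SCNT libraries and a median log2 difference of 0.39. Of 18 tested helicases named otherwise, none passed and 6 were under an unadjusted p of 0.05, all higher. In 13 of the 18 both SCNT libraries lay above both IVF libraries, and the median log2 difference of the 18 was 0.63. EIF4A1, the translation initiation helicase, had 42.1 and 44.6 FPKM in IVF against 119 and 204 FPKM in SCNT (1.82, adjusted p = 0.0511), and EIF4A3, of the exon junction complex, had 24.7 and 23.0 FPKM and 61.7 and 135 FPKM (1.90, 0.0579). Their paralogue EIF4A2 was the most abundant of the list and overlapped, at 379 and 316 FPKM in IVF against 432 and 352 FPKM in SCNT (0.17, 0.787). Among 13 tested partners of DDX6 in repression and decapping none passed, with 5 under an unadjusted p of 0.05, all higher. CPEB1, which binds the tails of stored messages, had 48.1 and 133 FPKM in IVF against 223 and 492 FPKM in SCNT (2.04, 0.0689), and EIF4ENIF1, which binds DDX6 and the cap-binding protein, had 43.8 and 86.3 FPKM and 130 and 247 FPKM (1.53, 0.0873). LSM1, of the decapping ring, lay lower in both SCNT libraries, at 159 and 146 FPKM in IVF against 76.3 and 104 FPKM in SCNT (−0.77, 0.213).

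Among 12 tested partners of DDX39B and DDX19 in messenger RNA export, 1 rose, THOC3, a subunit of the THO complex, from 34.4 and 32.4 FPKM in IVF to 132 and 190 FPKM in SCNT (log2 difference 2.21, adjusted p = 0.0366). No gene of these lists passed, THOC3 included, with no minimum level, after median centring, without IVF replicate 1 or without SCNT replicate 2. THOC1, another subunit of the complex, had 138 and 138 FPKM in IVF against 78.6 and 77.4 FPKM in SCNT (−0.82, 0.176), and SARNP, an RNA-binding partner of the complex, overlapped between the groups (−0.50, 0.471). Of 12 tested G-patch proteins, the activators of DEAH-box helicases, none passed; 7 were under an unadjusted p of 0.05, all higher, against 25.4% of all tested genes, and 9 lay above IVF in both SCNT libraries, against 46.9% (median 1.30, against 0.39). The most abundant were GPATCH2 (−0.07), RBM17 (1.17) and RBM5 (1.42). Of 7 tested members of the complex around DDX20, none passed, 2 were under an unadjusted p of 0.05, both higher, and 3 lay above IVF in both SCNT libraries (median 0.29), shares near those of all tested genes. GEMIN2, the most abundant, had 94.8 and 76.8 FPKM in IVF against 75.1 and 107 FPKM in SCNT, and STRAP (−0.02) and GEMIN5 (0.70) followed.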

How the data were processed

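Gene levels were measured by Smart-seq2 RNA sequencing of polyadenylated RNA. The authors deposited FPKM values, 1 column per library, made with fastp, HISAT2 2.2.1 and HTSeq among the tools, per the submitters' processing notes, which give no roles. For the scaling total, build, annotation and strand setting, the answer is not given in the sources used here. Related copies and overlapping or antisense genes may therefore share reads, and no coordinates are given. All 52 names were found in a RefSeq goat gene table (assembly ARS1.2), used for names and gene order only. The lncRNA tables hold no DDX or DHX entry and were not used. Protein and promoter sequences were not used here.

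Genes that reached 1 FPKM in 2 or more libraries entered limma 3.58.1 (R 4.3.3; lmFit, eBayes with trend) on log2(FPKM + 1), 2 libraries against 2, two-sided, with Benjamini-Hochberg adjustment over all 10303 genes and a threshold of 0.05; the procedure was first tested on simulated data. Log2 differences are on that scale and understate changes of low genes. Errors are SE from limma, and 95% intervals use its moderated degrees of freedom.

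Depth came from the most frequent ratio between libraries and from whole feature lengths. At the chosen total 91.7% of 4787 features gave a whole length, against 21.3% at a typical other total, and DDX28 gave 1860 bases, the span of its RefSeq gene. Reads were taken as whole within 0.005 read. Floors of 3 reads cover counting error only, since PCR copies cannot be told from separate molecules.

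Members and lists were chosen with earlier results of these data known. Helicase genes were named in full if they passed, were among the 12 most abundant, among the 8 largest differences in either direction, or fixed for a known role; list genes if they passed, or else the 3 most abundant. IFIH1 and the pair of DDX58 and DHX58 were chosen after their values were seen. Alternatives covered pseudocount, minimum level, scaling, variance trend, replicate block and leaving out each library; the minimum on the mean was added after seeing the data.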

Additional observations from a re-analysis of the deposited data

How the results depend on the processing

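Numbers of calls are given as higher and lower over all genes (311 and 87 as reported), then helicase genes higher (2) and pathway list genes (1). With no minimum level they were 0, 0, 0 and 0; limma there had 20289 genes to adjust over, with 3661 genes and 22 helicase genes under an unadjusted p of 0.05. With a minimum of 5 FPKM they were 92, 41, 0 and 1, after median centring 158, 238, 1 and 0, after rescaling to a total of 1000000 they were 1133, 194, 8 and 12, and after quantile normalization 121, 150, 0 and 1. The median log2 difference of the tested helicase genes (1.07) was 1.37 with a pseudocount of 0.1, 0.78 at 5 FPKM, 0.58 after centring and 0.59 after quantile normalization, and positive in all alternatives run. Leaving out 1 library gave 13 to 2856 higher and 33 to 978 lower calls, 0 to 22 helicase genes higher and 0 to 2 lower, and 0 to 30 pathway genes; the highest counts came without SCNT replicate 1, where the spread comes from the IVF pair alone, and the lowest higher counts without SCNT replicate 2. The helicase median ranged from 0.87 to 1.28 there. With the replicate number as a block, limma called 1636 higher and 288 lower genes, 14 helicase genes and 21 pathway genes. The labels do not say that numbers pair libraries, and replicate differences of the IVF and SCNT pairs correlated at 0.12 over genes. A minimum on the mean of the 4 libraries, chosen after seeing the data, kept DDX56 and DHX58. A group left with 1 library was assumed to vary like the other.

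Differences that changed sign belonged to genes that did not pass. After median centring they were −0.29 for DHX40, −0.058 for DDX5, −0.13 for DDX21, −0.012 for DHX29, −0.46 for DDX58 and −0.48 for DDX46, and after quantile normalization −0.010 for DDX21, −0.024 for DHX29, −0.38 for DDX58 and −0.23 for DDX46. Leaving out 1 library at a time gave log2 differences from −0.57 to 0.0078 for DDX18, −0.38 to 0.21 for DDX24, −0.77 to 0.57 for DDX10, −0.056 to 0.12 for DDX58 and −0.43 to 0.46 for DDX46. The cause was not tested. Genes under about 1 FPKM rest on few reads, and with 2 libraries a group the spread between libraries limits every comparison.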
